A study of Mus musculus with 20 samples.

Results

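Cytochromes P450 of families 1 to 4 were followed in bulk RNA-seq of mouse kidney and liver after treatment with (+)-JQ1, a small molecule that competes with acetyl-lysine for binding to bromodomains. The genes were chosen by symbol, as family number 1 to 4 with a subfamily letter and a gene number and at least 1 transcript annotated as protein coding, with no use of measured values. The rule found 80 genes of 55642 in the annotation, 3 in family 1, 48 in family 2, 9 in family 3 and 20 in family 4, in 21 subfamilies. Adult male DBA/2J mice had received JQ1 at 50 mg/kg or vehicle by daily intraperitoneal injection for 3 weeks. From each organ there were 3 libraries from JQ1-treated males taken at the end of dosing (JQ1 treatment, 10 weeks old), 3 taken 6 weeks after the last dose (JQ1 recovery, 16 weeks old), 3 vehicle libraries of the treatment time (10 weeks old) and 1 vehicle library of the recovery time (16 weeks old). The 4 vehicle libraries of an organ formed its control group, so age was shared unequally between control and JQ1 groups. The sample labels were followed in this, although a legend in the study's supplement swaps the numbers of vehicle libraries at treatment and recovery and names fewer weeks of recovery, and every statement on age or on controls of the same age rests on the labels. In the study the organs served to ask whether a drug aimed at the testis changed tissues outside it.

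P450 enzymes are heme proteins of the endoplasmic reticulum that insert 1 oxygen atom into a substrate, with electrons passed on from NADPH by P450 oxidoreductase (Por) and cytochrome b5. Families 1 to 3 oxidise drugs, toxicants and steroids, and family 4 hydroxylates fatty acids at or near the end of the chain. In liver many of these genes answer to the xenobiotic receptors AHR (family 1), CAR and PXR (subfamilies 2b, 2c and 3a) or to the fatty acid receptor PPARA (subfamily 4a), and several differ between male and female mice. In mouse kidney the proximal tubule holds most of the P450 protein, and several of its P450 genes respond to androgen.

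Levels are in CPM (reads relative to library size with TMM factors, fitted within an organ), which compare 1 gene between libraries of an organ, or as TPM (read share corrected for transcript length), which also compare different genes. Kidney libraries held between 13952510 and 26895318 reads, liver libraries between 11968500 and 17529910, and P450 genes of families 1 to 4 took 0.427 to 0.652% of kidney reads and 1.04 to 1.50% of liver reads. No read was assigned in any library to 12 of the 80 genes, to 19 of them in kidney and to 15 in liver, where 3 reads over the organ's libraries would be 0.0164 and 0.0209 CPM without TMM scaling. After the filter on low counts 32 of the genes were tested in kidney, 51 in liver and 55 over both organs.

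The organs were recognisable by their markers, with exceptions in 2 liver libraries. Hepatocyte markers (7 of 8 symbols found, all detected) summed to 67203 to 74234 CPM in liver control, 80565 to 91536 in liver JQ1 treatment and 17.6 to 66.6 across the kidney libraries. Proximal tubule markers (10 of 10 found) summed to 0.473 to 4.12 CPM in the 7 liver control and JQ1 treatment libraries, but to 25.3, 6063 and 2843 in liver JQ1 recovery replicates 1, 2 and 3. Replicates 2 and 3 thus held 27.1% and 12.7% of the level in kidney control. The 7 markers of the loop of Henle, distal tubule and collecting duct stood at 30.6% and 13.0% of kidney control in the same libraries, so markers of different nephron segments were present there in nearly the same proportion. Kidney P450 genes stood high in those libraries as well. Cyp4b1 was at 513 and 242 CPM, against 6.83 to 12.7 in the other 8 liver libraries, and Cyp2j13 at 72.3 and 28.0 CPM, against 0 to 0.207. These 2 libraries entered every fit of the 10 liver libraries and its estimate of the spread, so the liver tests were repeated without them, an alternative chosen after seeing the data.

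**Figure D1:**
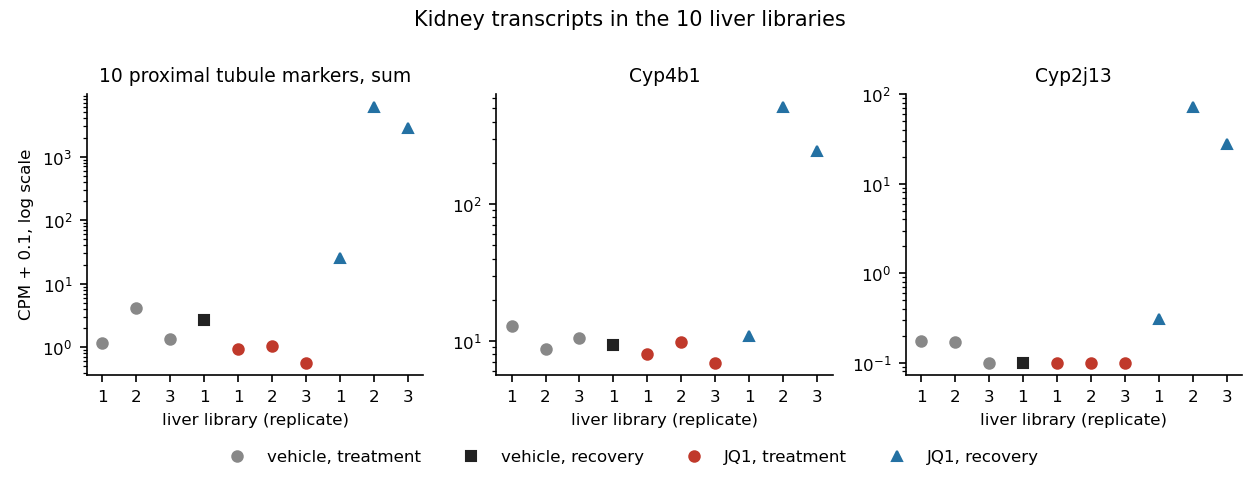
Sum of 10 proximal tubule markers (CPM without TMM scaling) and CPM of Cyp4b1 and Cyp2j13 in each of the 10 liver libraries, with 0.1 added, on log axes. JQ1 recovery replicates 2 and 3 lie above all others in each panel, with marker sums of 6063 and 2843 CPM, and replicate 1 of that group is at 25.3.

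The most abundant P450 genes of the 2 organs were largely different, with Cyp2e1 and Cyp2d9 among the 10 highest of both. In kidney control the 10 highest genes made up 95.7% of the summed mean TPM of all 80. Cyp4b1, which hydroxylates medium-chain fatty acids and arenes, stood first at 1114 ± 218 TPM (SD, n = 4). Cyp2j5, an arachidonate epoxygenase of the tubule, followed at 464 ± 15.0 TPM and Cyp2e1, the ethanol-inducible enzyme, at 377 ± 106 TPM. These 2 overlapped in their libraries, as did Cyp2a4 (147 ± 21.8 TPM) and Cyp4a12a (122 ± 27.3 TPM), next in the order. The rest of the 10 were Cyp2d9 (59.3 ± 14.9 TPM), Cyp2a5 (49.9 ± 19.8), Cyp2j13 (38.7 ± 11.5), Cyp4a31 (37.0 ± 7.08) and Cyp2d26 (30.2 ± 7.07), each overlapping its neighbour. Nearly all Cyp4b1 reads of kidney control lay on transcripts not annotated as protein coding (0.2% on protein-coding ones), although the gene sum is used here. In liver control the 10 highest held 78.9% of the sum and 29 genes reached 10 TPM, against 14 in kidney. Cyp3a11, the main mouse counterpart of human drug-metabolising CYP3A4, was highest at 725 ± 99.3 TPM and overlapped Cyp2e1 at 676 ± 67.8. Cyp2c29 (351 ± 36.8 TPM), Cyp2f2 (273 ± 11.8), Cyp2d9 (257 ± 19.5), Cyp2d10 (205 ± 24.5), Cyp3a25 (180.2 ± 17.1), Cyp2c70 (154 ± 33.7), Cyp2c67 (148 ± 36.4) and Cyp1a2 (134 ± 17.1) came next.

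**Figure D2:**
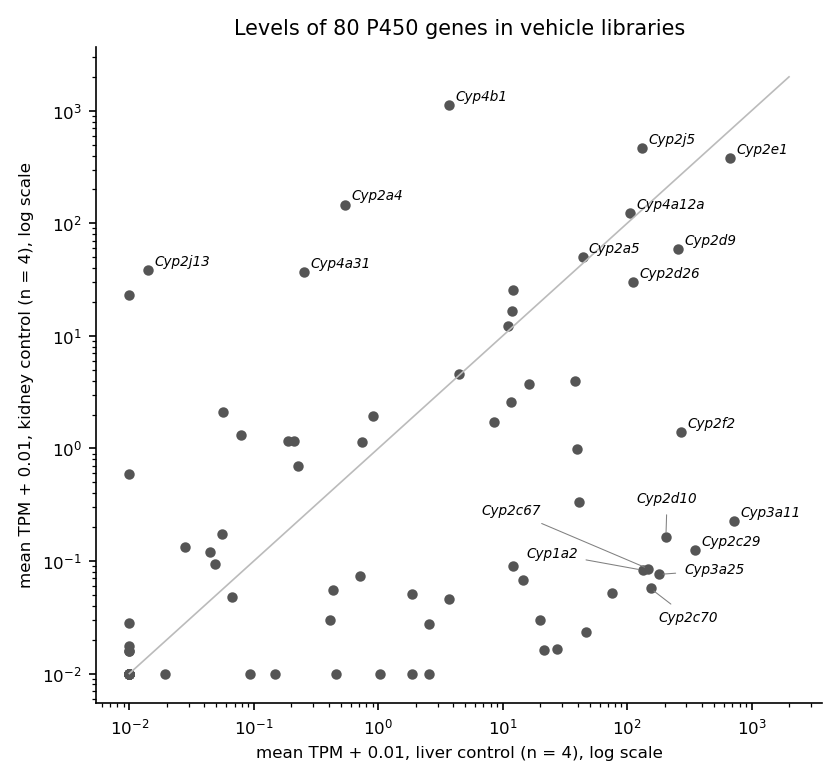
Mean TPM of the 80 P450 genes in the 4 kidney control libraries against the 4 liver control libraries, 0.01 added, on log axes, with the 10 highest genes of each organ named and the line of equal level drawn. Cyp3a11, Cyp3a25, Cyp2c29, Cyp2c67 and Cyp2c70 lie to the right and below the line, and Cyp4b1 and Cyp2j13 above it.

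A direct test between the organs placed 10 of 55 genes higher in kidney and 40 higher in liver (edgeR quasi-likelihood test, Benjamini-Hochberg adjusted p below 0.05), where 32.1% of all 17710 genes tested were higher in kidney and 29.6% lower. Only 28 of the P450 genes passed the filter on low counts in the fits of both single organs. The others entered through the organ where they were expressed, which favoured the direction of their call. The 6 largest differences toward liver were in Cyp3a11 (199399 reads in liver control against 46 in kidney control), Cyp2a12, Cyp2c29, Cyp2c70, Cyp3a25 and Cyp2c54, with log2 differences of -13.11 to -12.72. Cyp2c54 had 1 kidney read against 5509 in liver, a ratio of 6160 with a 95% counting interval of 1105 to 2.434e+05 relative to library totals, or of 1.115e+04 (2000 to 4.406e+05) with the TMM factors of the test. The 6 largest toward kidney were Cyp2j11 (3720 reads against 0, at least 613-fold higher in kidney with TMM factors and a floor of 3 reads over the liver group, or 1109-fold relative to library totals), Cyp2j13 (13689 against 2), Cyp2j7 (71 against 0, at least 11.7-fold, or 21.2-fold relative to library totals), Cyp2a4 (log2 difference 6.76 ± 0.90 SE), Cyp4b1 (6.73 ± 0.80) and Cyp4a31 (5.72 ± 0.73). Of these, Cyp2j11, Cyp2j7 and Cyp2j13 belong to the same subfamily as Cyp2j5, which was expressed in both organs (log2 difference 0.33). Cyp2j5 was 1.255-fold higher in kidney with TMM factors and 2.272-fold relative to library totals. Its mean TPM was 464 in kidney control and 132 in liver control.

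Kidney at the end of JQ1 dosing had 5 P450 genes lower than in control and none higher. The 5 were Cyp2a5, Cyp2a4, Cyp2d12, Cyp2d26 and Cyp4a12a, out of 32 tested, where 2.73% of all 17158 genes were lower and 1.4% higher. The median log2 fold change of the 32 was -0.10, beside -0.01 for all genes, with 18 below 0 and 14 above, and 10 had an unadjusted p below 0.05. The groups did not overlap in CPM for 7 of the 32 genes, or 21.9%, where 15.2% of all genes tested did not.

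Cyp2a5, the coumarin and nicotine hydroxylase of the mouse, changed most. In vehicle libraries of the treatment time it was at 87.4, 74.4 and 127 CPM and in the vehicle library of the recovery time at 179 CPM. In the 3 JQ1 treatment libraries it was at 4.24, 3.89 and 3.71 CPM, and in the 3 JQ1 recovery libraries at 123, 141 and 169 CPM. Every treated library lay far below every other kidney library, and the recovery libraries fell within the range of the control. The log2 fold change at treatment was -4.90 ± 0.40 SE (29.8-fold lower, edgeR adjusted p = 0.00067). Against the vehicle libraries of the same age alone it was -4.61 ± 0.26, with an adjusted p of 0.000106.

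Cyp2a4, its close copy and a steroid 15-alpha-hydroxylase, was at 272, 249 and 306 CPM in vehicle libraries of the treatment time, 344 in that of the recovery time, 29.3, 71.8 and 42.0 with JQ1 and 320.4, 322 and 336 in recovery. It fell by 2.60 ± 0.30 on the log2 scale (adjusted p = 0.00344), again with no overlap. Of the 75-base stretches in its transcripts, 77.9% occur in no other gene and 21.0% also occur in Cyp2a5, so reads could pass between the 2 in the assignment. The summed Cyp2a subfamily went from 410 ± 88.3 CPM (SD, n = 4) in control to 51.6 ± 21.7 (n = 3) at treatment and 471 ± 31.7 (n = 3) in recovery.

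The 2 genes also share the sequence before their start sites. The 150 bases upstream of each RefSeq start are shown for the 3 members that fell in kidney and had an entry in the RefSeq promoter table (GRCm38.p6), to let their likeness be seen. Capitals mark 4 motifs searched on both strands: TATAAA, the TATA box, CAAAGTCC, a core of HNF4 sites, GTTAAT, a half-site of HNF1, and AGAACA, a half-site of steroid receptors. None of these overlapped another.
Cyp2a5, chr7:26835189-26835338, plus strand: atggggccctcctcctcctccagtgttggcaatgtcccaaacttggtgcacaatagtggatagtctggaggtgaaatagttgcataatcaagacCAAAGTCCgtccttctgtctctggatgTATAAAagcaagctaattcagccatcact
Cyp2a4, chr7:26307042-26307191, plus strand: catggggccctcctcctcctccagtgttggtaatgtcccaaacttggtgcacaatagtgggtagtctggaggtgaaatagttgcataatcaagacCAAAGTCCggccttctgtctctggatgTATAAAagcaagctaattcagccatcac
Cyp2d26, chr15:82794246-82794395, minus strand: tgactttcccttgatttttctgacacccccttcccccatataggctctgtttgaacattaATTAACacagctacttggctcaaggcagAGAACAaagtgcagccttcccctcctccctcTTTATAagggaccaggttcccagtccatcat
The windows of Cyp2a5 and Cyp2a4 were identical at 146 of 151 aligned positions (96.7%), and each held CAAAGTCC and, nearer the start, TATAAA. Cyp2d26 held none of the HNF4 core and had the other 3 motifs. CAAAGTCC stood in any window of 13 of the 65 P450 genes of families 1 to 4 in the table (20.0%), most of them in subfamilies 2c and 3a, and in 0.74% of all 32851 windows. TATAAA stood in any window of 36.9% of these genes and in 7.57% of all windows, GTTAAT in 6.2% and 3.71%, and AGAACA in 12.3% and 9.62%. The shares of genes count a gene by any of its windows and the shares of all windows count single windows, so they are not like for like. These matches describe letters in the windows and were not related to binding.

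In the Cyp2d subfamily, Cyp2d12 was at 3.45 to 6.67 CPM in the 4 control libraries, 0.556, 0.673 and 0.824 at JQ1 treatment and 3.78 to 8.06 in recovery. Its log2 fold change at treatment was -2.69 ± 0.34 (adjusted p = 9.58e-05). Cyp2d26 was at 48.9, 62.7 and 74.1 CPM in vehicle libraries of the treatment time, 44.8 in that of the recovery time and 21.0, 28.1 and 27.7 with JQ1, a fall by 1.17 ± 0.18 on the log2 scale (adjusted p = 0.00528). In both genes the treated and control libraries did not overlap. Most of their kidney reads were assigned to transcripts not annotated as protein coding: only 17.5% of Cyp2d12 control reads and 8.9% of Cyp2d26 control reads lay on protein-coding transcripts, the rest on a retained-intron and a nonsense-mediated decay transcript. On protein-coding transcripts alone Cyp2d12 had 58 reads in control and 0 at treatment and Cyp2d26 373 and 136, the latter 8.9% of the gene's reads in both groups. With those counts both calls were lost (Cyp2d12 log2 fold change -6.81, adjusted p = 0.194; Cyp2d26 -1.32, adjusted p = 0.819). Cyp2d9, a steroid 16-alpha-hydroxylase with male-biased expression in liver, was at 85.2 to 139.8 CPM in control and 14.7, 52.3 and 25.7 at treatment. Its log2 fold change of -1.87 ± 0.42 missed the threshold (adjusted p = 0.0614), although the groups did not overlap. The Cyp2d sum went from 185 ± 34.3 CPM (SD, n = 4) to 65.9 ± 23.2 (n = 3).

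Cyp4a12a, the androgen-responsive 20-HETE synthase of male mouse kidney, was at 336, 324 and 293 CPM in vehicle libraries of the treatment time, 209, 199 and 232 with JQ1, 472 in the vehicle library of the recovery time and 522, 437 and 478 in JQ1 recovery. The treated libraries were the lowest of the 10, and both 16-week groups were the highest. The fall at treatment was by 0.74 ± 0.15 on the log2 scale against all controls (adjusted p = 0.0208) and by 0.57 ± 0.08 against those of the same age (adjusted p = 0.000399). The call against all controls was lost without JQ1 treatment replicate 1 or 2, with an adjusted p up to 0.110. Cyp4a12a and Cyp4a12b share many 75-base stretches, and 59.2% of those in Cyp4a12a were unique to it. Cyp4a12b, at 23.9 to 43.7 CPM in control and 11.9 to 28.7 at treatment, overlapped between the groups (log2 fold change -0.78, adjusted p = 0.294).

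**Figure D3:**
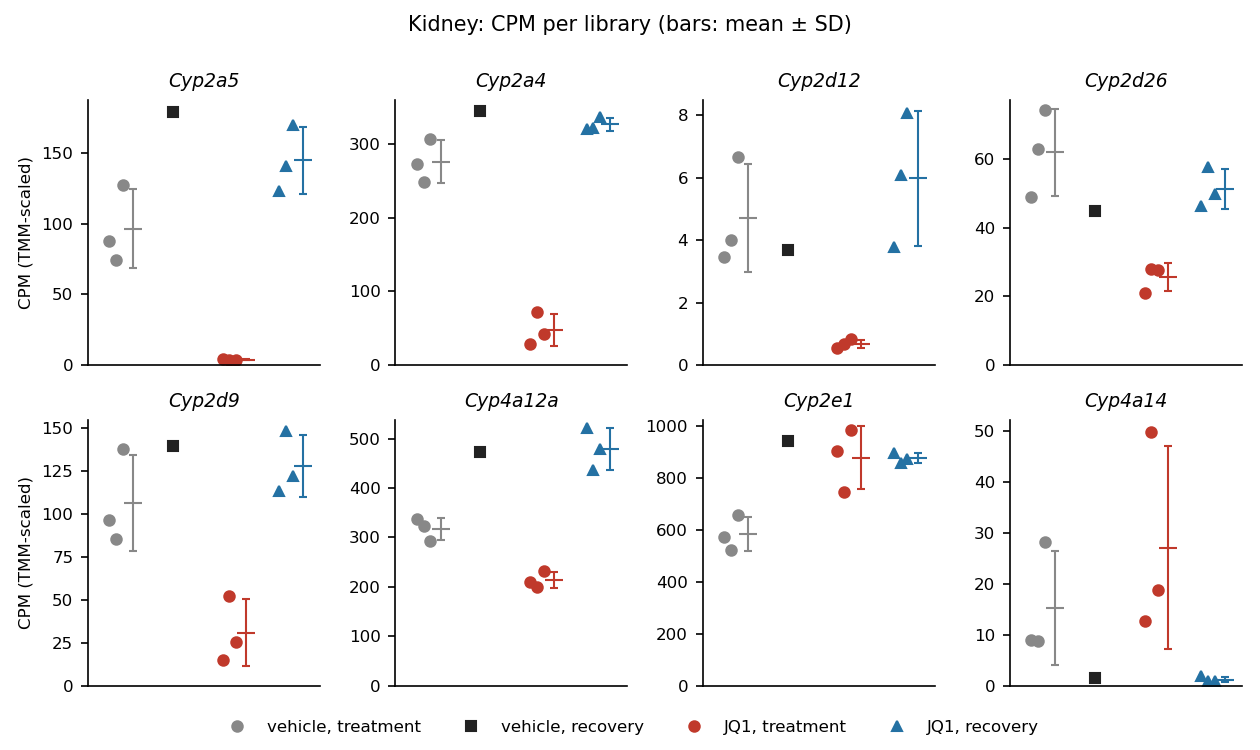
CPM of 8 P450 genes in each of the 10 kidney libraries by group, with bars for mean ± SD (SD over 3 libraries, none for the single vehicle recovery library). JQ1 treatment libraries of Cyp2a5 lie between 3.71 and 4.24 CPM, below all others, and the vehicle recovery library of Cyp2e1, Cyp4a12a and Cyp4a14 lies with the JQ1 recovery libraries.

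Among the other abundant kidney genes of the family none was called against all controls, and 2 were called higher against controls of the same age. Cyp2j5 was at 1304 ± 33.9 CPM (SD, n = 4) in control and 1381 ± 113 (n = 3) at treatment, and Cyp4b1 at 1864 ± 370.1 and 1484 ± 255, with log2 fold changes of 0.08 (adjusted p = 0.599) and -0.33 (adjusted p = 0.338). Cyp2e1 was at 572, 523 and 656 CPM in vehicle libraries of the treatment time and 903, 746 and 985 with JQ1, but at 943 in the vehicle library of the recovery time. It was not called against all controls (log2 fold change 0.38, adjusted p = 0.371) and was higher against those of the same age (0.60 ± 0.10, adjusted p = 0.00167). Cyp2j13 moved likewise, with 0.49 ± 0.11 and an adjusted p of 0.0282 against controls of the same age. In that comparison 7 genes of the family were called, the same 5 lower and these 2 higher, where 2.05% of all genes were lower and 1.22% higher. A single vehicle library represented 16 weeks.

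Marker sums of 4 of the 11 cell type lists did not overlap between kidney JQ1 treatment and control, where 15.2% of all single genes tested did not. The 10 proximal tubule markers summed to 16678 to 17954 CPM at JQ1 treatment, 18593 to 27783 in control and 25542 to 27727 in recovery, with all 10 detected in each group. Within that list Kap, an androgen-regulated transcript of the proximal tubule, made up most of the sum. Kap was at 10053 to 10815 CPM at treatment and 12850 to 21810 in control. The phosphate transporter Slc34a1 went the other way, at 2804 to 3227 and 2245 to 2441. The lower sum thus does not show a fall of the listed markers as a whole. Red cell transcripts (5 of 5 detected) summed to 9080 to 12078 CPM at treatment and 4779 to 8246 in control. Endothelial markers (4 of 4 detected) summed to 205 to 226 CPM at treatment and 233 to 245 in control, and lymphocyte markers (4 of 4 detected) to 0.194 to 0.786 and 1.01 to 1.94. The sums of the other 7 lists, among them loop and distal tubule, podocyte and macrophage markers, overlapped. The part of these markers in the P450 values was not tested, and in bulk RNA fewer cells of a type and less RNA per cell cannot be told apart.

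Genes whose kidney pattern was most like that of Cyp2a5 were ranked by Pearson correlation of log2(CPM + 1) over the 10 kidney libraries, which share their 3 groups. Among P450 genes of families 1 to 4 these were Cyp2a4 (r = 0.97), Cyp2d12 (0.95), Cyp2d9 (0.92), Cyp4a12a (0.89) and Cyp2d26 (0.87). Among all other genes they were Ugt2b37, a glucuronosyltransferase (0.99), Stra6l (0.99), the methyltransferase gene Inmt (0.99), Cckar (0.99) and BC024386 (0.99).

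At 6 weeks after the last dose no kidney P450 gene of the 32 differed from control in the edgeR test, where 5 had an unadjusted p below 0.05 and 0.00583% of all genes were called higher and 0% lower. DESeq2 called 1, Cyp4a14 (log2 fold change -3.33). It was run without the filter on low counts and called 0.289% of 28734 genes higher and 0.101% lower. Cyp4a14 encodes a PPARA-induced fatty acid omega-hydroxylase. This gene was at 8.97, 8.69 and 28.2 CPM in vehicle libraries at 10 weeks, 12.7, 49.9 and 18.9 at JQ1 treatment, 1.80, 0.80 and 0.915 in JQ1 recovery, and 1.42 in the vehicle library at 16 weeks. The 4 libraries from 16-week animals were thus the lowest whether or not the animals had received JQ1. Without the vehicle recovery library, which left only 10-week controls, 3 P450 genes were called higher in recovery, namely Cyp2e1, Cyp2j13 and Cyp4a12a, where 1.12% of all genes were higher and 0.288% lower.

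The direct comparison of kidney treatment with recovery found 6 P450 genes lower and 1 higher at treatment, where 4.91% of all genes were lower and 2.41% higher. Both contrasts use the same treated libraries. Lower were the 5 genes called against control and Cyp2d9 (log2 fold change -2.02 ± 0.44, adjusted p = 0.0388). Cyp2a5 differed by -5.20 ± 0.41 (adjusted p = 0.000421) and Cyp4a12a by -1.17 ± 0.16 (adjusted p = 0.00157). Cyp4a31, a Cyp4a member that like Cyp4a10 and Cyp4a14 answers to PPARA, was higher at 120, 175 and 148 CPM against 77.2, 85.7 and 94.2 (0.79 ± 0.18, adjusted p = 0.0271). Its call was lost in 5 of 6 fits that left out 1 library, with adjusted p up to 0.101, and that of Cyp2d9 also in 5 of 6, up to 0.121. The 2 groups differed in age by 6 weeks as well as in dosing, which cannot be told apart here.

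Liver at the end of JQ1 dosing had 2 P450 genes higher and 1 lower than control among 51 tested, where 0.268% of 14559 genes were higher and 0.227% lower. Without liver JQ1 recovery replicates 2 and 3, which belong to neither group compared, the same contrast gave 4 higher and 9 lower among 52 tested, where 1.11% of 15558 genes were higher and 1.19% lower. In CPM 21 of the 51 genes, or 41.2%, did not overlap between JQ1 treatment and control, where 12.9% of all genes did not.

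Cyp2j6, of the Cyp2j subfamily, was higher at treatment. It was at 33.6, 24.6 and 33.7 CPM in vehicle libraries of the treatment time, 38.5 in that of the recovery time, 53.8, 62.4 and 74.3 with JQ1 and 40.9, 39.7 and 34.6 in JQ1 recovery. All 3 treated libraries exceeded the other 7, and the log2 fold change against control was 0.96 ± 0.15 (1.95-fold, adjusted p = 0.0105), or 0.95 ± 0.14 without the 2 libraries (adjusted p = 0.00186). The call was lost without JQ1 treatment replicate 2 or 3, with an adjusted p up to 0.113. Its 75-base stretches occur in no other gene.

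Cyp3a44, a female-predominant member of the Cyp3a subfamily, rose from a very low level, with 0.116 to 0.540 CPM in control and 9.05, 3.67 and 1.45 at treatment. Only the treated libraries reached the minimum of the filter on low counts. The gene thus entered the liver tests through the group where it was high, which favoured a call in that direction. Cyp3a44 had 188 reads in the 3 treated libraries against 19 in the 4 controls, a log2 fold change of 3.89 ± 0.70 (adjusted p = 0.033), or 3.89 ± 0.66 without the 2 libraries (adjusted p = 0.0105). Cyp2c55 was at 4.05 to 11.3 CPM in control and 2.17, 1.28 and 2.30 at treatment, and fell by 1.90 ± 0.37 on the log2 scale (adjusted p = 0.0413), or by 1.92 ± 0.34 without the 2 libraries (adjusted p = 0.00437). Each of these 2 calls was lost in 6 of 7 fits that left out 1 library (adjusted p up to 0.253 for Cyp3a44 and 0.300 for Cyp2c55).

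A further 10 genes passed the threshold once the 2 libraries with kidney RNA were left out. Cyp2e1, among the most abundant transcripts of the family, was at 1780, 1879 and 2063 CPM in vehicle libraries of the treatment time, 2141 in that of the recovery time and 1120.4, 1218 and 1285 with JQ1, so that the groups were well apart. It fell by 0.71 ± 0.09 on the log2 scale in that fit (adjusted p = 0.000108), against 0.70 ± 0.17 and an adjusted p of 0.111 with all libraries. Cyp2u1, a fatty acid hydroxylase, was at 56.1 to 70.7 CPM in control and 34.1, 31.1 and 42.8 at treatment (-0.85 ± 0.12, adjusted p = 0.000279; 0.0809 with all libraries). Cyp4f14, which hydroxylates leukotrienes and fatty acids, was at 130.2 to 179.8 CPM in control and 109, 106 and 93.4 at treatment (-0.65 ± 0.10, adjusted p = 0.00122; 0.379 with all libraries).

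The Cyp2c subfamily took part with Cyp2c29 (1416 to 1813 CPM in control, 950, 1149 and 1187 at treatment), Cyp2c50, Cyp2c54 and Cyp2c37 besides Cyp2c55. Their log2 fold changes without the 2 libraries were -0.58 ± 0.10 (adjusted p = 0.0026), -0.85 ± 0.11, -0.69 ± 0.10 and -1.15 ± 0.18. The Cyp2c sum was 3094 ± 252 CPM (SD, n = 4) in control and 2296 ± 236 (n = 3) at treatment, with no overlap. Cyp2b10, the classical CAR target, had 86 reads in the 4 control libraries and 2 in the 3 treated ones, a ratio of 28.0 relative to library totals with a counting interval of 7.51 to 235 (log2 fold change -4.62 ± 0.94 without the 2 libraries, adjusted p = 0.00906). Among higher genes, Cyp4a31 was at 4.13, 3.91 and 4.44 CPM at treatment against 0.869 to 1.86 in control (1.75 ± 0.33, adjusted p = 0.00475) and Cyp4a32 at 2.22 to 3.04 against 0.300 to 1.22 (1.89 ± 0.43, adjusted p = 0.0216).

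**Figure D4:**
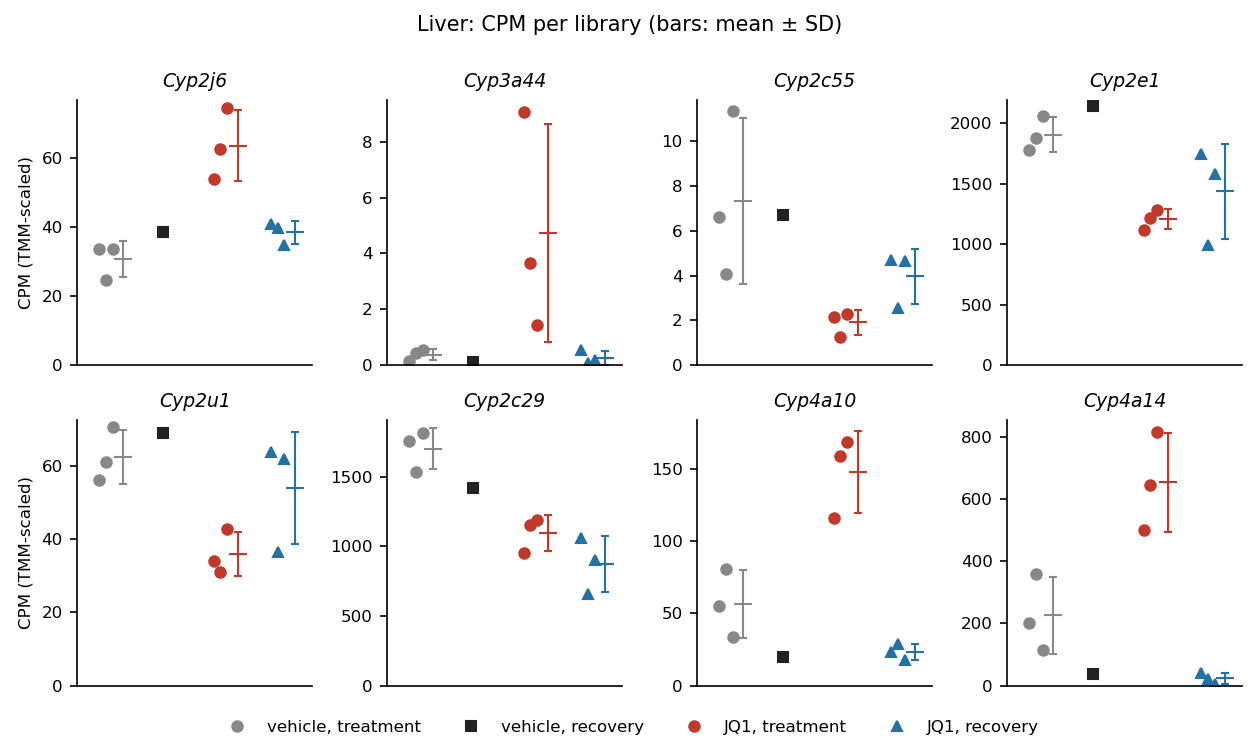
CPM of 8 P450 genes in each of the 10 liver libraries by group, with bars for mean ± SD over 3 libraries and none for the single vehicle recovery library. JQ1 treatment libraries of Cyp2e1 lie between 1120.4 and 1285 CPM, below the 4 vehicle libraries, and those of Cyp2j6 between 53.8 and 74.3, above all others.

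The lists of known regulation and function below are to be read beside the shares of all genes called, in liver 0.268% higher and 0.227% lower with all libraries and 1.11% and 1.19% without the 2, and in kidney 1.4% and 2.73%. The 10 CAR and PXR targets in liver had 0 members higher and 1 lower in the fit with all libraries (median log2 fold change -0.70, beside 0.00 for all genes) and 0 higher and 6 lower without the 2 libraries (median -0.71). The PXR target Cyp3a11 was not among them, at 2728 to 3746 CPM in control and 2769, 3842 and 4148 at treatment. Of the 4 PPARA targets 0 were called with all libraries and 2 were higher without the 2 libraries. Of 13 genes on a list of female-biased liver P450 genes 7 could be tested, with 1 higher and 0 lower and a median of 1.64. Without the 2 libraries 8 could be tested, with 1 higher (Cyp3a44), 1 lower (Cyp2b10) and a median of 1.75. Of 7 male-biased genes 0 were called, with a median of -0.07, or 1 lower without the 2 libraries. Cyp2c40, on the female-biased list, was at 0.464 to 0.868 CPM in control and 57.7, 28.8 and 2.47 at treatment. The treated libraries were all above the controls and spread widely, and the gene did not pass the test (log2 fold change 5.51 ± 1.01, adjusted p = 0.0881; 0.131 without the 2 libraries). Of 6 genes listed as arachidonate epoxygenases and tested in liver 1 was higher (Cyp2j6), and of 7 listed as omega-hydroxylases 0 were called. The activity of each listed enzyme was not examined. Without the 2 libraries 1 gene of the epoxygenase list was higher (Cyp2j6) and 1 lower (Cyp2c29), and 1 of the omega-hydroxylase list was lower (Cyp4f14). In kidney 0 of 4 on the epoxygenase list were called and 1 of 6 on the omega-hydroxylase list was lower (Cyp4a12a). In kidney 1 of 3 CAR and PXR targets, 1 of 5 male-biased genes and 1 of 3 female-biased genes were lower, and 0 of 3 PPARA targets were called. The lists overlap and were drawn up with earlier results of these data known.

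The fatty acid hydroxylases Cyp4a14 and Cyp4a10 were highest in treated liver and low in all liver libraries of 16-week animals. Cyp4a14 was at 202, 361 and 116 CPM in vehicle libraries at 10 weeks, 500.4, 647 and 816 with JQ1, 36.5 in the vehicle library at 16 weeks and 41.4, 21.5 and 5.06 in JQ1 recovery. Cyp4a10 was at 55.4, 81.0 and 34.0 CPM, 116, 159 and 169, 20.1, and 23.5, 28.5 and 17.5 in the same order. Every treated library was above every control library, yet neither passed the test against control (log2 fold changes 1.87 and 1.64, adjusted p = 0.546 and 0.229; 0.403 and 0.262 without the 2 libraries), and the vehicle library at 16 weeks lay with the recovery libraries. The Cyp4a sum was 778 ± 110 CPM (SD, n = 4) in control and 1323 ± 163 (n = 3) at treatment.

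Of the subfamily sums that reached 10 CPM in control, 2 of 7 in kidney (Cyp2a and Cyp2d, both lower) and 6 of 13 in liver did not overlap between JQ1 treatment and control, where 15.2% and 12.9% of all single genes tested did not. In liver Cyp2c, Cyp2e, Cyp2u and Cyp4f were lower and Cyp2f and Cyp4a higher. The large Cyp3a sum was 3977 ± 395 CPM (SD, n = 4) in control and 4503 ± 874 (n = 3) at treatment, and the Cyp2d sum 1688 ± 8.65 and 1682 ± 253, both with overlap. Family 1, represented in liver by Cyp1a2, was at 491 ± 49.8 and 378 ± 102 CPM, also overlapping. Cyp1a1, the standard reporter of AHR activation, had 18 reads in kidney control and 13 at treatment, and 13 and 0 in liver.

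The sum of hepatocyte markers was higher in every treated liver than in every control liver, as given above. The 10 proximal tubule markers stood at 0.473 to 0.950 CPM in the treated livers, with 7 of 10 above 0, and at 1.08 to 4.12 in control. Endothelial markers (4 of 4 detected) summed to 109.7 to 121 CPM at treatment and 125 to 145 in control, and lymphocyte markers (2 of 4 above 0 at treatment) to 0.439 to 0.631 and 0.632 to 2.43, without overlap. The lymphocyte sums were nearly in contact. The sums of the other 7 lists overlapped. Of all single genes tested in liver, 12.9% did not overlap between the 2 groups. The part of these markers in the P450 values was not tested.

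In liver recovery no P450 gene was called in the edgeR test of all libraries, where 17 of 51 had an unadjusted p below 0.05 and 0.0137% of all genes were higher and 0.0206% lower. DESeq2 called 11 P450 genes, 3 higher and 8 lower. It was run without the filter on low counts and called 2.08% of 26915 genes higher and 0.765% lower. Without replicates 2 and 3 none was called either (6 with an unadjusted p below 0.05), where 0% of all genes were higher and 0.00643% lower, but 1 recovery library then remained and was assumed to vary like the other groups. Without replicate 1 instead, which leaves the pair with kidney RNA, 18 were called, 6 higher and 12 lower, where 8.8% of all genes were higher and 4.84% lower. Cyp4b1 shows how these libraries bear on the value: its log2 fold change was 4.64 with all libraries and 0.07 without the pair.

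Liver treatment against recovery called Cyp3a44 (4.09 ± 0.79, adjusted p = 0.022), Cyp2j6 (0.72 ± 0.16, adjusted p = 0.0309) and Cyp4a10 (2.68 ± 0.50, adjusted p = 0.04) higher at treatment and none lower, where 1.31% of all genes were higher and 0.989% lower. Without replicates 2 and 3, with 1 recovery library left that was assumed to vary like the other groups, none of these was called. Their log2 fold changes were then 3.09 ± 1.08 (adjusted p = 0.323), 0.63 ± 0.22 (0.293) and 2.65 ± 0.90 (0.421), and Cyp2u1 was lower (-0.83 ± 0.16, adjusted p = 0.0167), where 0.469% of all genes were higher and 0.418% lower.

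Whether JQ1 changed a gene differently in kidney and liver was tested by an interaction over all 20 libraries. The test took all libraries as independent, and the labels do not say whether both organs came from the same animals. Of 55 P450 genes 2 differed, Cyp2a5 and Cyp2j6, where 0.136% of all 17710 genes were lower in this contrast (kidney effect minus liver effect) and 0.0339% higher. Neither was called with the replicate number as a block, nor Cyp2a5 with limma voom. Cyp2a5 in liver was at 127, 202 and 113 CPM in vehicle libraries of the treatment time, 202 in that of the recovery time and 47.9, 102 and 145 with JQ1, with overlap between the groups and a liver log2 fold change of -0.71 ± 0.37 (adjusted p = 0.613; 0.611 without the 2 libraries). The kidney effect was lower by 4.17 ± 0.53 on the log2 scale (adjusted p = 0.0045). Cyp2j6, at 18.1 to 23.9 CPM in kidney control and 17.2 to 18.7 in kidney at treatment, did not pass the test there (-0.20 ± 0.11, adjusted p = 0.361), and its organ difference was -1.15 ± 0.19 (adjusted p = 0.00779).

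Without liver JQ1 recovery replicates 2 and 3 both were called (-4.15 ± 0.60 and -1.13 ± 0.18) and Cyp2d26 (-1.02 ± 0.21, adjusted p = 0.025) and Cyp2e1 (1.11 ± 0.21, adjusted p = 0.0186) were added, so that 3 were lower and 1 higher, where 0.387% of all genes were lower and 0.222% higher. Of the 28 genes tested in both organs, 16 had a fold change below 0 in kidney and 17 in liver.

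**Figure D5:**
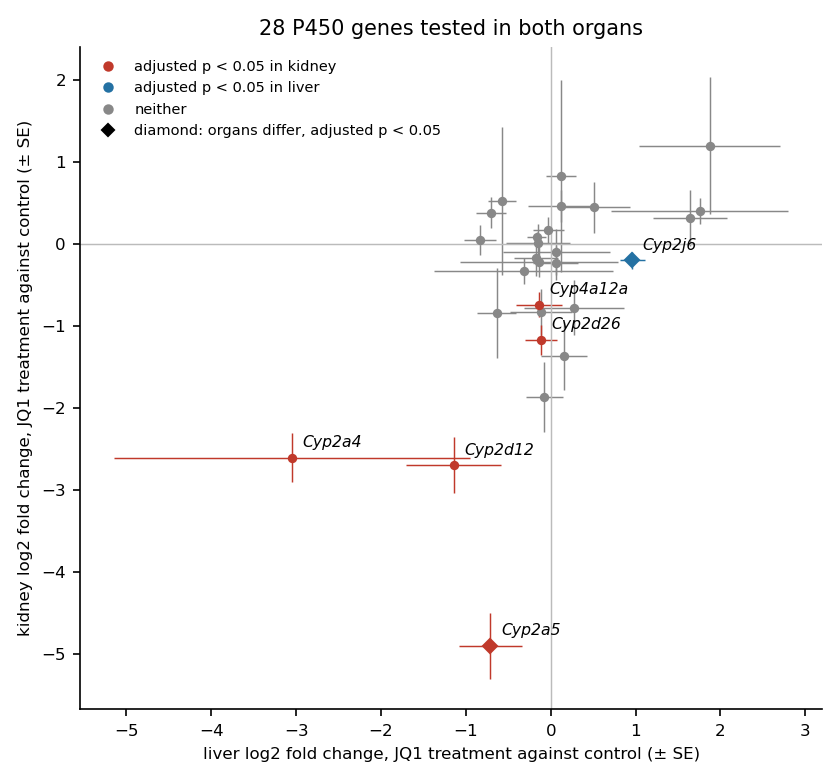
Log2 fold change of JQ1 treatment against control in kidney (vertical axis) and liver (horizontal axis) for the 28 P450 genes tested in both organs, with SE bars, from the fits with all libraries. Cyp2a5 lies at -4.90 in kidney and -0.71 in liver, and Cyp2j6 at -0.20 and 0.96. Diamonds mark these 2 genes, whose organ difference passed the test without a replicate block but not with it.

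Genes that work with P450 enzymes were examined from lists. In kidney 1.4% of all genes were higher and 2.73% lower, and in liver 0.268% and 0.227% with all libraries and 1.11% and 1.19% without the 2. Of 19 tested genes of electron supply and heme synthesis in kidney, 2 were higher at treatment, Por (0.44 ± 0.07, adjusted p = 0.000962) and the cytochrome b5 reductase gene Cyb5r3 (0.34 ± 0.08), and 1 lower, the mitochondrial cytochrome b5 gene Cyb5b (-0.36 ± 0.09). Por was at 249 to 301 CPM in treated kidneys and 193 to 211 in control. In liver none of the 19 was called with all libraries, and Por (0.65 ± 0.11, adjusted p = 0.00196) and Cyb5r3 (0.37 ± 0.09) were higher without the 2 libraries.

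Of 22 tested regulators in kidney 0 were higher and 3 lower. These were the estrogen receptor gene Esr1 (-0.94 ± 0.15, adjusted p = 0.000962), the oxysterol receptor gene Nr1h3 (-0.57 ± 0.13, adjusted p = 0.0128) and Stat5b, which carries the growth hormone signal (-0.36 ± 0.10, adjusted p = 0.0496). In liver 0 of 25 were called with all libraries and 1 of 26 without the 2, Nr1i3, the gene of CAR. It was at 34.0, 39.7 and 32.1 CPM in vehicle libraries of the treatment time, 40.6 in that of the recovery time, 14.1, 16.8 and 21.1 with JQ1 and 43.6, 20.4 and 33.5 in JQ1 recovery. Its log2 fold change was -1.09 ± 0.14 (adjusted p = 0.000103; -1.08 ± 0.23 and 0.0742 with all libraries).

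Other phase I enzymes gave 1 of 30 higher in kidney, the flavin monooxygenase gene Fmo2 (0.42 ± 0.10), and 2 lower, the carboxylesterase genes Ces2e (-1.03 ± 0.25) and Ces1e (-0.84 ± 0.15). In liver 2 of 37 were higher with all libraries, Aldh1a7 (0.59 ± 0.11) and Ces1d (0.63 ± 0.12), and 7 higher and 1 lower without the 2. Of 18 P450 genes outside families 1 to 4, 6 were tested in kidney. Cyp24a1, the vitamin D 24-hydroxylase, was higher (1.75 ± 0.33, adjusted p = 0.0306) and Cyp7b1, the oxysterol 7-alpha-hydroxylase, lower (-1.38 ± 0.24, adjusted p = 0.0195), and in liver none of 10 was called, nor of 11 without the 2.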

How the data were processed

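Poly(A) RNA of mouse kidney and liver (20 libraries, single-end) was sequenced by the authors, with trimming by fastp 0.20.1 and quantification by Salmon 1.10.0 per the labels. Per the labels the transcriptome was mm10, whereas the annotation named there belongs to a later assembly, so no coordinate of the files was used. The deposited expected counts (estimated reads per transcript) and deposited TPM values were summed per gene, and expected counts were rounded. edgeR 4.0.16 (TMM, filterByExpr with a minimum count of 10 and a total of 15, robust quasi-likelihood test, R 4.3.3) was fitted to all genes, per organ over 10 libraries in 3 groups and over 20 libraries in 6 groups for differences between organs, with Benjamini-Hochberg adjustment at 0.05. The study pooled both vehicle times and used DESeq2, an alternative here (DESeq2 1.42.0), as was limma voom (limma 3.58.1). Errors are SE for fold changes and SD for levels. The labels do not tie kidney libraries to the animals of liver libraries, and p-values measure the spread between libraries. A change of 1 gene could pass to a near-identical copy: of 75-base windows in GENCODE vM21 transcripts a median of 97.4% per gene occurred in no other gene, and 2 genes (Cyp3a41a and Cyp3a41b) were below 50%. Named genes were those called in a comparison of JQ1 with control or of treatment with recovery (up to 12), the 10 highest by TPM in each organ, the 6 largest organ differences in each direction, subfamilies of at least 10 CPM and a list of representatives, in which Cyp2c44 appears in the files as Cyp2c23. Genes, lists and tests were chosen with earlier results of these data known. Scripts were tested on simulated counts. Read counts limit low genes; counting intervals are exact and cover counting error only.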

Additional observations from a re-analysis of the deposited data

Results flagged for a closer look

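In 3 of the 74 control groups checked, 1 of the 4 vehicle libraries stood apart by Dixon's test at the 95% level, where chance gives about 1 in 20. Cyp3a11 in kidney was at 2.05 CPM in the vehicle recovery library and at 0 to 0.207 in the others. Cyp2c37 in liver was at 52.1 CPM in vehicle treatment replicate 3 and at 77.2 to 80.6 in the others. Cyp2c39 in liver was at 14.5 CPM in vehicle treatment replicate 2 and at 6.08 to 6.84 in the others. The JQ1 effect differed between organs in the interaction test for Cyp2a5 (kidney minus liver -4.17 ± 0.53 SE on the log2 scale, adjusted p = 0.0045) and Cyp2j6 (-1.15 ± 0.19, adjusted p = 0.00779). Neither was called with the replicate number as a block.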

How the results depend on the processing

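Of 176 refits of called P450 genes under alternative settings 149 remained called, 27 were lost and 0 reversed, and of 95 refits between the organs 93 remained called. Kidney treatment kept 3 of 5 calls with protein-coding transcripts alone. In liver treatment, with 3 calls, there was 1 with controls of the same age, with length-scaled TPM counts and with limma voom, 6 without the filter on low counts, 12 with DESeq2, and 13 both with only the groups compared and without JQ1 recovery replicates 2 and 3. DESeq2 called 1 gene in kidney recovery, 11 in liver recovery, 15 in liver treatment against recovery and 5 in the organ difference. Without the filter 2 were called in liver recovery and 6 in liver treatment against recovery, and the latter gave 1 with only the groups compared and 1 without replicates 2 and 3. The organ difference gave 1 with limma voom and 4 both with only the groups compared and without replicates 2 and 3. The cause was not tested.

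Leaving out 1 library at a time gave 4 to 7 calls in kidney treatment, 0 to 2 in liver treatment, 0 to 3 in kidney recovery, 0 to 18 in liver recovery, 4 to 7 in kidney treatment against recovery, 0 to 21 in liver treatment against recovery, 2 to 3 in the organ difference and 49 to 51 between the organs. The 3 arose without the vehicle recovery library, and the 18 and 21 without liver JQ1 recovery replicate 1. Without liver JQ1 recovery replicate 2 the treatment against recovery count was 7, and it was 0 without recovery replicate 3 or JQ1 treatment replicate 1 or 2. Liver treatment had 0 calls without JQ1 treatment replicate 2, and 1 without JQ1 treatment replicate 1, vehicle recovery replicate 1 or vehicle treatment replicate 1 or 3. Kidney treatment against recovery had 4 without JQ1 recovery replicate 2. Subfamily sums not overlapping numbered 8, or 7 with TPM and 8 to 11 with a library left out.

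Same-numbered libraries did not deviate together (correlations of -0.199 to 0.17 within kidney, -0.089 to 0.015 within liver and -0.079 to 0.058 between organs, over 9 pairs each). Organs of 1 animal need not deviate together across genes, so this does not settle whether the numbers pair the samples. With the replicate number as a block, 7 genes were called in kidney treatment, 3 in liver treatment, 0 in kidney and in liver recovery, 6 in kidney treatment against recovery, 1 in liver treatment against recovery and 0 in the organ difference (adjusted p = 0.0849 for Cyp2a5 and 0.0811 for Cyp2j6).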
